A study of Mus musculus with 10 samples.

Results

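The interferon-stimulated genes described here are 36 genes picked by name out of the 55401 genes listed for 10 mouse livers. All 36 were found. RNA came from livers of 5 mice labelled NIKhKO and 5 labelled NIKflox, and every mouse had been fed ethanol, 5% in a Lieber-DeCarli liquid diet, over 4 weeks. NIK is the NF-kB inducing kinase, encoded by Map3k14. The title of the series names NIK in the liver, so the comparison asks what its loss changes in RNA of the ethanol-fed liver. What hKO stands for is not spelled out by the labels, and the driver of the deletion, the exons removed, the strain, the sex and the age of the mice are not given in the sources used here. Since both genotypes received ethanol, the values describe a difference between genotypes on that diet, and a liver without ethanol was not analysed here. The labels do not tell whether mice of a genotype shared litters or cages, and p-values therefore cover only the spread among these samples.

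Interferons are secreted proteins that put neighbouring cells on guard against infection. Type I interferons, through their receptor and the kinases JAK1 and TYK2, activate a complex with STAT2 and IRF9 that binds interferon-stimulated response elements, while interferon gamma acts mainly at gamma-activated sites. The genes switched on in this way encode sensors of foreign RNA, proteins that block viral replication, GTPases that attack enclosed pathogens, and the pathway's own regulators. Hepatocytes, Kupffer cells and endothelial cells of the liver all respond to interferon, and a bulk liver library cannot tell fewer cells of a type from less RNA per cell.

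Libraries held 53225028 to 64321202 estimated counts in NIKhKO and 47161869 to 65052525 in NIKflox, and correlations of log2 expression between libraries ran from 0.957 to 0.982. Levels are given as FPKM, which scales fragments by the length of the transcript and the size of the library. Hepatocyte markers were abundant in all libraries, 10 genes that summed to 44700 to 52000 FPKM in NIKhKO and 40200 to 55400 FPKM in NIKflox. Map3k14 itself read 0.383 ± 0.0372 FPKM in NIKhKO and 0.606 ± 0.168 FPKM in NIKflox (SD, n = 5 each), with ranges that did not overlap, and a log2 fold change of −0.59 (SE 0.19; edgeR quasi-likelihood test, unadjusted p = 0.0098, Benjamini-Hochberg adjusted p = 0.33). It was therefore not called. Heart muscle transcripts, 10 genes, summed to 0.625 to 1.49 FPKM in NIKhKO, and to 7.36 FPKM in NIKflox 2 and 33.2 FPKM in NIKflox 4 against 0.567 to 1.27 FPKM in the other 3 NIKflox libraries.

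Most of the interferon-stimulated genes had higher fitted levels in NIKhKO livers, by small amounts, and none of them passed the test over all genes. Of the 36, 35 had a mean of at least 0.5 FPKM and were tested with edgeR's quasi-likelihood test, and Mx1 (mean 0.361 FPKM) was not. Log2 fold changes, NIKhKO minus NIKflox, were positive for 29 and negative for 6, or 82.9% positive against 48.2% of the 12731 genes tested. Scaled by library size alone, 25 of the 35 were positive. Their median was 0.23, beside −0.01 for all genes tested, and they ran from −0.30 for Oas1a to 0.92 for Usp18. At an adjusted p below 0.05, 0 of 35 were called, against 0.0236% of all genes (3 genes), with 0.0157% called higher and 0.00785% called lower. At an unadjusted p below 0.05, 7 were higher, or 20% against 4.85% of all genes, and 0 were lower, against 5.14% of all genes. The 7 were Usp18, Ifih1, Gbp2, Rsad2, Oasl1, Isg15 and Cmpk2. Such genes are known to be induced together, and they share libraries, so the counts are a description of the list and not a sum of independent results. DESeq2, run as an alternative on the same counts, called 3 of them higher, Usp18, Gbp2 and Ifih1, at a threshold that 1.63% of all genes passed in either direction and 0.99% on the higher side.

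**Figure D1:**
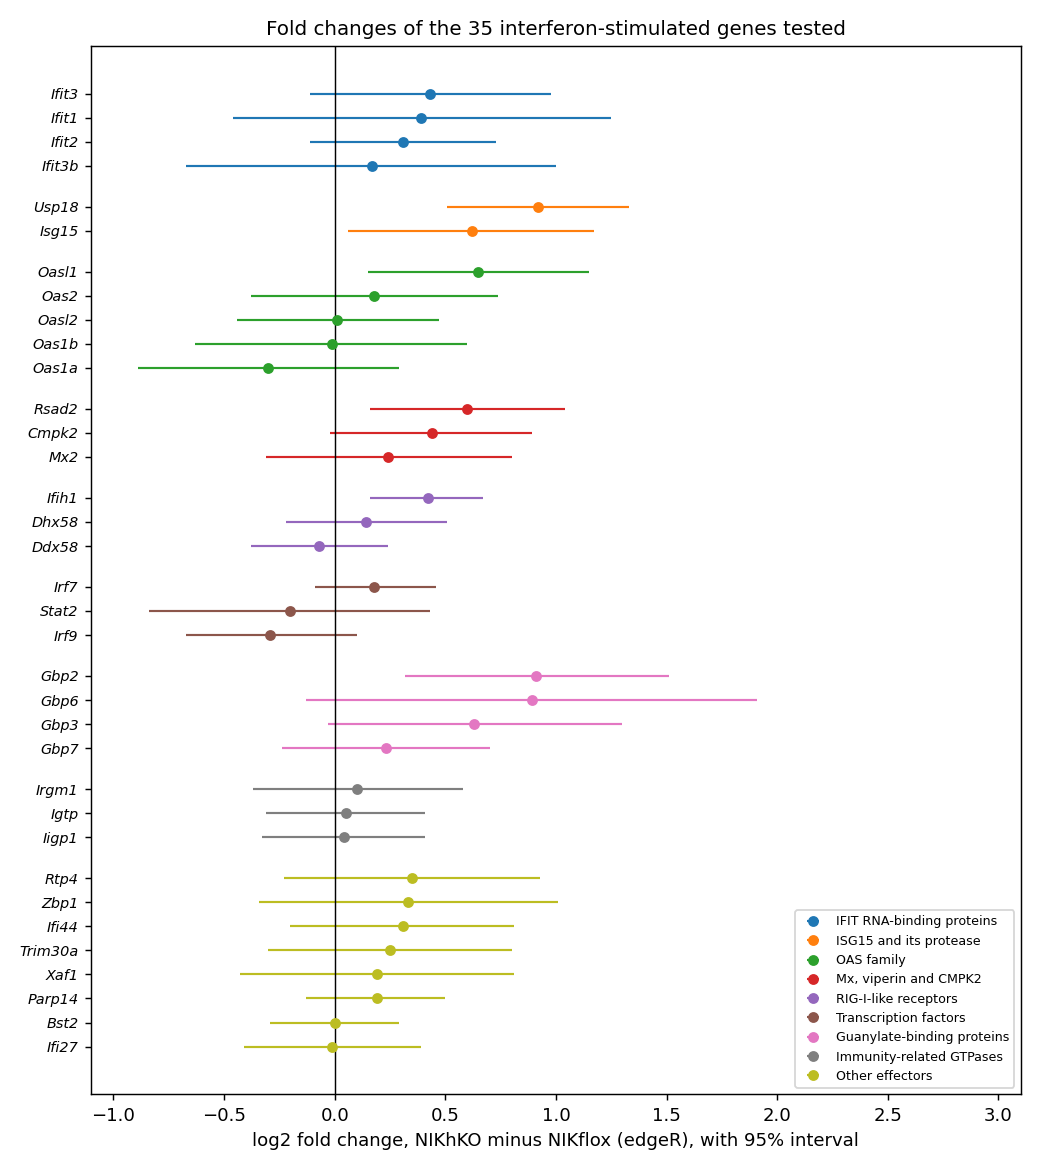
Log2 fold change (NIKhKO minus NIKflox, horizontal axis) of each of the 35 genes tested, from edgeR's quasi-likelihood fit, with lines for the 95% interval and colours for roles. Intervals of 6 genes lie above 0, those of Usp18, Ifih1, Gbp2, Rsad2, Oasl1 and Isg15, and the other 29 include 0.

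Expression was low for most of these genes. Averaged over the 10 libraries, 5 genes read at least 10 FPKM, 29 read between 1 and 10 FPKM, and 2 read below 1 FPKM, with a median of 2.51 FPKM. The 5 most abundant were Bst2, Ifi27, Iigp1, Igtp and Isg15. Their median log2 fold change was 0.04, and that of the 30 less abundant genes tested was 0.25. Isg15 was the one abundant gene with an interval above 0.

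The sequence to which interferon-activated complexes bind was found in the promoters of most of these genes that could be searched. RefSeq promoters (GRCm38.p6, 250 bases before to 50 after the start) were at hand for 24 of the 36 genes and were searched on both strands. The core of the interferon-stimulated response element, GAAA followed by any 2 bases and a second GAAA, was found for 16 of the 24 (66.7%), against 3.99% of the 27025 genes in the table and 3.44% of its 32851 promoters. The gamma-activated site, TTCNNNGAA, was found for 5 of the 24 (20.8%), Ifit2, Oas1a, Gbp7, Igtp and Bst2, against 9.55% of genes and 8.3% of promoters. A match shows that the letters are there and not that a factor binds. Usp18 was among the genes not searched. Starts are those of RefSeq and can differ from the ends of the gene coordinates printed with each gene, as they do for Ifih1 and Gbp2. By those gene coordinates, the core of Gbp2 lies inside the gene and that of Ifih1 before it. The cores of the genes with the smallest p-values that hold one, and those of Ifit1, are shown first, with 8 bases on each side, read 5′ to 3′ on the strand that holds both GAAA runs, with the match in capitals.
Ifih1 motif, chr2:62646206-62646231, minus strand: agagaatcGAAACAGAAAccgatctg
Gbp2 motif, chr3:142620596-142620621, minus strand: aagacagtGAAAGTGAAActaaaaga
Rsad2 motif, chr12:26456555-26456580, plus strand: tgttttctGAAAATGAAAgttggacc
Isg15 motif, chr4:156200867-156200904, minus strand: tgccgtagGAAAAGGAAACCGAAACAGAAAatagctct
Ifit1 motif, chr19:34640777-34640802, minus strand: tgagactgGAAAGTGAAActgaagcc
Ifit1 motif, chr19:34640796-34640821, minus strand: agcagtgaGAAACTGAAActgagact

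In Isg15, 3 matches overlap to form a run of 22 bases, the first of which lies 78 bases before the start. The core of Gbp2 lies 59 bases and that of Rsad2 120 bases before the start, and the cores of Ifit1 lie 104 and 85 bases before it. In Ifih1 the core lies 32 bases after the RefSeq start. Promoters of 3 of these genes are shown whole up to the start, as read along the gene's strand, because they place the element beside the start, with the core in capitals (as its reverse complement where it lies on the opposite strand).
Gbp2 promoter, chr3:142620413-142620662, plus strand: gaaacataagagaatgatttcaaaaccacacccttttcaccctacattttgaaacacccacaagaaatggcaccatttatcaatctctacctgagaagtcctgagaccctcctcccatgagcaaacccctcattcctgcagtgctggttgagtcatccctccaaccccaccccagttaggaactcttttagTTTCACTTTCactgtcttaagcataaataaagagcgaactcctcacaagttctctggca
Rsad2 promoter, chr12:26456453-26456702, minus strand: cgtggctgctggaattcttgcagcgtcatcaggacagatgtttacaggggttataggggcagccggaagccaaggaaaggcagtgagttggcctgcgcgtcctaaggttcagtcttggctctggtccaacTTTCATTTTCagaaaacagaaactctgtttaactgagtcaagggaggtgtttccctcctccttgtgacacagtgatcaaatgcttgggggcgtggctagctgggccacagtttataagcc
Isg15 promoter, chr4:156200819-156201068, minus strand: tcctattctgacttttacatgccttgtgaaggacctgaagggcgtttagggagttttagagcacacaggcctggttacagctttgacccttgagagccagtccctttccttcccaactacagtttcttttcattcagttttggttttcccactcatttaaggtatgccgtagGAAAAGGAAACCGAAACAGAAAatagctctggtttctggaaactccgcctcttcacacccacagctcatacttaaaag

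Over the 16 genes with a core there were 26 matches, of which 23 began before the start and 14 within the 100 bases before it. Log2 fold changes had much the same median with and without the core. The 16 genes with it had a median log2 fold change of 0.24 (−0.30 to 0.91), with 12 positive, and the 8 without it a median of 0.25 (−0.29 to 0.65), with 7 positive. Oasl1 and Cmpk2, both among the 7 with an unadjusted p below 0.05, hold neither motif in these windows.

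**Figure D2:**
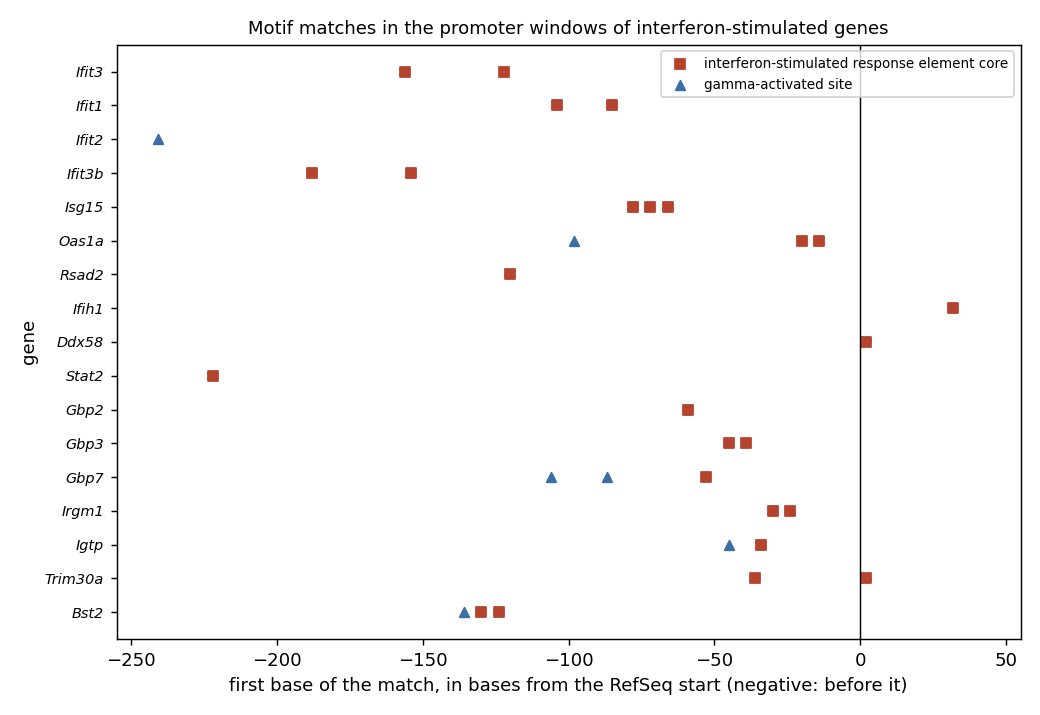
Position of each motif match in the RefSeq promoters of the 17 genes with a match, as the distance in bases of its first base from the start (horizontal axis, negative before the start). Squares mark the core of the interferon-stimulated response element and triangles the gamma-activated site, on either strand, and 23 of 26 squares lie before the start.

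Both genes of the ISG15 system had positive log2 fold changes, and Usp18 had the highest of the 35. ISG15 is a ubiquitin-like protein that interferon causes cells to attach to other proteins, and USP18 is the protease that removes it and also damps signalling at the type I receptor. Usp18 (ENSMUSG00000030107, chr6:121245906-121270917, plus strand) read 5.5, 6.45, 3.58, 3.67 and 6.14 FPKM in NIKhKO 1 to 5, against 2.51, 2.70, 2.26, 3.36 and 3.06 FPKM in NIKflox 1 to 5. Every NIKhKO library stood above every NIKflox library, with NIKhKO 3 and 4 closest to them. Usp18 was the one gene of the 35 with such a separation on the higher side, which 0.605% of all genes tested showed, and 0 were separated on the lower side, against 1.59%. Its means were 5.07 ± 1.36 FPKM in NIKhKO and 2.78 ± 0.435 FPKM in NIKflox (SD, n = 5 each), a fitted 1.89-fold difference on counts of 363 to 1282 per library. The log2 fold change was 0.92 (SE 0.18, 95% interval 0.51 to 1.33), with an edgeR unadjusted p of 0.00029 and a Benjamini-Hochberg adjusted p of 0.17. DESeq2 gave an adjusted p of 0.00064, and over all alternatives the adjusted p ran from there to 0.41, with log2 fold changes of 0.66 to 1.01.

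Isg15 (ENSMUSG00000035692, chr4:156199455-156200796, minus strand) read 18.3, 23.8, 9.17, 12.0 and 20.4 FPKM in NIKhKO, against 10, 15.4, 10.6, 9.43 and 10.9 FPKM in NIKflox. NIKhKO 1, 2 and 5 stood above all NIKflox libraries and NIKhKO 3 below all of them, so the ranges overlapped. The log2 fold change was 0.62 (SE 0.24, 95% interval 0.06 to 1.17; edgeR adjusted p = 0.43).

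**Figure D3:**
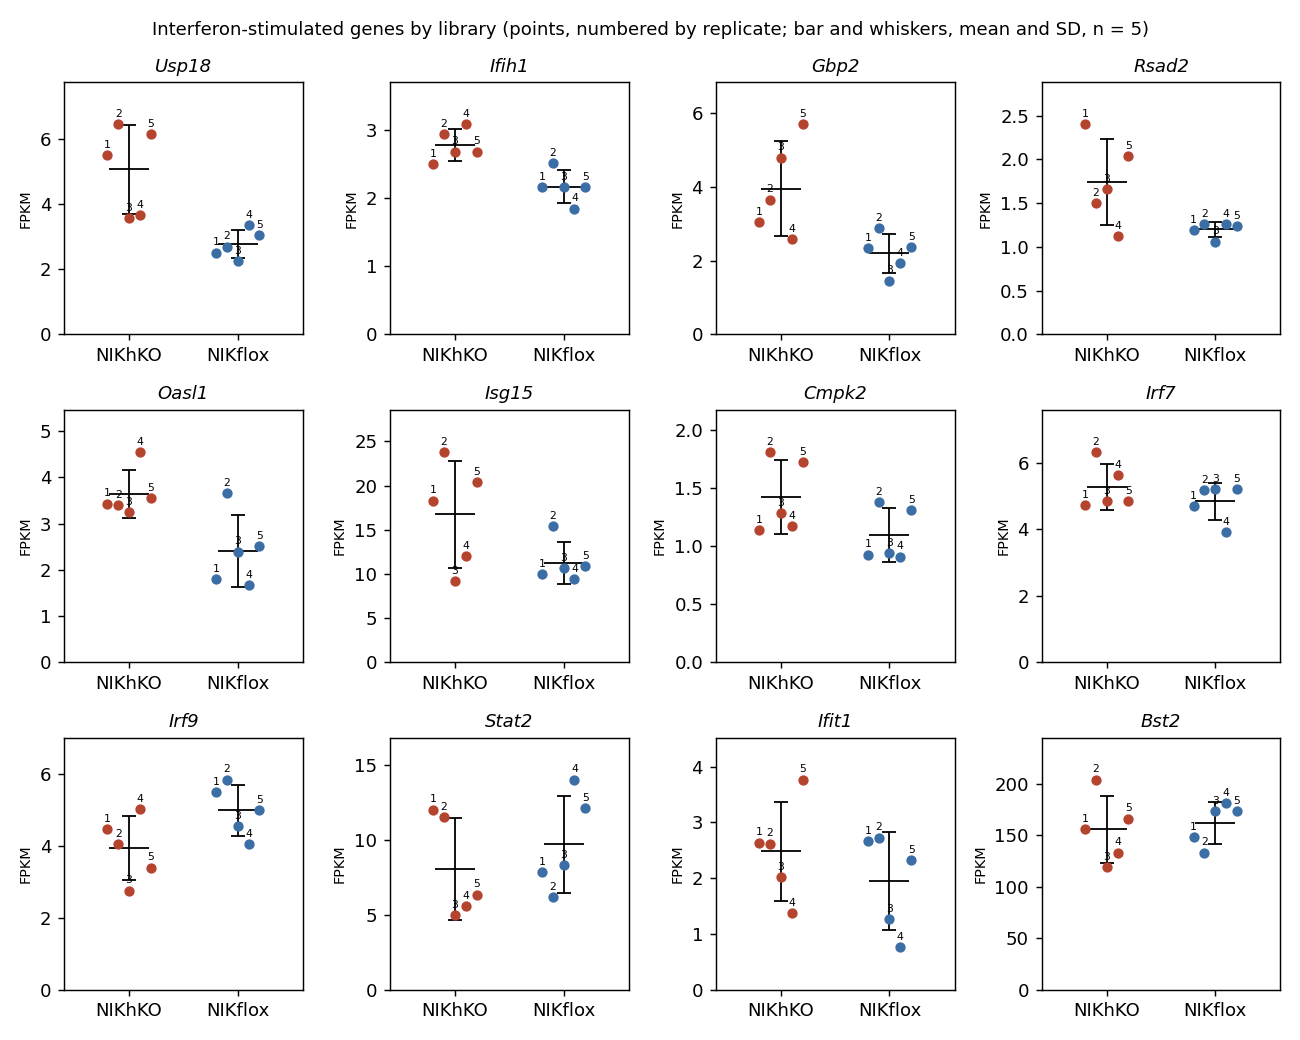
FPKM (vertical axes, from 0) of 12 interferon-stimulated genes in the 5 NIKhKO (left) and 5 NIKflox (right) libraries, 1 point a library with its replicate number, and the mean with SD as bar and whiskers. Usp18 ranges are separate, while those of the other 11 genes overlap.

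Guanylate-binding proteins, large GTPases that gather on the vacuoles of intracellular pathogens, had positive log2 fold changes in all 4 genes, with medians of 0.49 to 0.95 over the alternatives and 0.76 as reported. The ISG15 genes had a median of 0.77, and which of the groups was higher changed with the setting. Gbp2 (ENSMUSG00000028270, chr3:142620602-142638008, plus strand) read 3.05, 3.66, 4.80, 2.58 and 5.70 FPKM in NIKhKO, against 2.35, 2.88, 1.46, 1.93 and 2.37 FPKM in NIKflox. All NIKhKO libraries but NIKhKO 4 were above every NIKflox library. Its means were 3.96 ± 1.28 FPKM in NIKhKO and 2.20 ± 0.533 FPKM in NIKflox (SD, n = 5 each), and its log2 fold change was 0.91 (SE 0.26, 95% interval 0.32 to 1.51; edgeR adjusted p = 0.28). DESeq2 gave an adjusted p of 0.04, the lowest of its alternatives, which reached 0.54.

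Gbp6 was the gene with the largest spread. It read 1.59, 2.04, 1.79, 0.968 and 2.20 FPKM in NIKhKO, against 1.45, 1.87, 0.404, 0.444 and 0.594 FPKM in NIKflox. NIKflox fell into 2 high and 3 low libraries, with a coefficient of variation of 70.0%, and the log2 fold change of 0.89 had an interval from −0.13 to 1.91 (edgeR adjusted p = 0.55). Of its 50-base windows, 90.2% also occur in another gene, so its level is uncertain. Gbp3 had a log2 fold change of 0.63, on means of 3.53 ± 0.757 FPKM in NIKhKO and 2.35 ± 0.965 FPKM in NIKflox (SD, n = 5 each), and Gbp7 one of 0.23, both with intervals that include 0.

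The immunity-related GTPases, smaller relatives that act on the same vacuoles and are strongly induced by interferon gamma in mice, had log2 fold changes near 0. The values were 0.05 for Igtp, 0.10 for Irgm1 and 0.04 for Iigp1. Igtp averaged 17.4 ± 4.0 FPKM in NIKhKO and 17.4 ± 2.28 FPKM in NIKflox, and Iigp1 25.4 ± 4.93 FPKM in NIKhKO and 25.9 ± 3.68 FPKM in NIKflox (SD, n = 5 each). The 95% intervals ran from −0.31 to 0.41 for Igtp and from −0.33 to 0.41 for Iigp1. Scaling by library size alone gave −0.03 for Iigp1 and 0.00 for Igtp, and 0.06 for Irgm1.

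Rsad2 and Cmpk2 lie next to each other on chromosome 12 and point away from each other. Rsad2 encodes viperin, an enzyme that makes a chain-terminating nucleotide against viral polymerases, and Cmpk2 a mitochondrial nucleotide kinase. Rsad2 (ENSMUSG00000020641, chr12:26442746-26456452, minus strand) read 2.40, 1.5, 1.66, 1.12 and 2.04 FPKM in NIKhKO, against 1.19, 1.26, 1.06, 1.26 and 1.24 FPKM in NIKflox. NIKhKO 4 lay among the NIKflox libraries and the other 4 above them, while the NIKflox libraries varied by only 6.83%, the least of any of the genes in that genotype. The log2 fold change of Rsad2 was 0.60 (SE 0.19, 95% interval 0.16 to 1.04; edgeR adjusted p = 0.32). Cmpk2 (ENSMUSG00000020638, chr12:26469204-26479837, plus strand) read 1.14, 1.81, 1.28, 1.17 and 1.72 FPKM in NIKhKO, against 0.926, 1.38, 0.936, 0.909 and 1.31 FPKM in NIKflox. NIKhKO 2 and 5 were above all NIKflox libraries, NIKflox 2 and 5 were above the other NIKhKO libraries, and the log2 fold change was 0.44 (SE 0.20, 95% interval −0.02 to 0.89; edgeR adjusted p = 0.49). Of the Mx genes, dynamin-like GTPases that trap viral nucleocapsids, Mx2 had a log2 fold change of 0.24. Mx1 read 0.528, 0.341, 0.444, 0.309 and 0.364 FPKM in NIKhKO, against 0.167, 0.453, 0.256, 0.407 and 0.341 FPKM in NIKflox, with overlapping ranges.

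Among the sensors of viral RNA in the cytosol, log2 fold changes were positive for 2 of 3 genes and had a median of 0.14. Ifih1 (ENSMUSG00000026896, chr2:62595798-62646211, minus strand), which encodes the sensor of long double-stranded RNA, read 2.51, 2.95, 2.69, 3.09 and 2.69 FPKM in NIKhKO, against 2.17, 2.52, 2.17, 1.85 and 2.17 FPKM in NIKflox. All NIKhKO libraries but NIKhKO 1 were above every NIKflox library, and NIKhKO 1 and NIKflox 2 nearly met. Its means were 2.79 ± 0.232 FPKM in NIKhKO and 2.18 ± 0.238 FPKM in NIKflox (SD, n = 5 each), with a log2 fold change of 0.42 (SE 0.11, 95% interval 0.16 to 0.67; edgeR adjusted p = 0.26). DESeq2 gave an adjusted p of 0.049, and the alternatives reached 0.53. Ddx58, which encodes RIG-I, the sensor of RNA with a free triphosphate end, had a log2 fold change of −0.07, and Dhx58, a regulator of the other sensors, one of 0.14. The difference between Ifih1 and either of them was not tested.

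The OAS family, which makes the short oligoadenylates that switch on RNase L, went both ways, with 3 of 5 positive and a median of 0.01 (2 of 5 and −0.05 when scaled by library size alone). Oasl1, a member without that enzyme activity that in mice limits translation of Irf7, was the highest. Oasl1 (ENSMUSG00000041827, chr5:114923240-114937915, plus strand) read 3.43, 3.40, 3.24, 4.55 and 3.55 FPKM in NIKhKO, against 1.80, 3.66, 2.39, 1.67 and 2.51 FPKM in NIKflox. All NIKflox libraries but NIKflox 2 lay below all NIKhKO libraries, and the log2 fold change was 0.65 (SE 0.22, 95% interval 0.15 to 1.15; edgeR adjusted p = 0.35). Oas1a was the lowest of all 35, at −0.30 (95% interval −0.89 to 0.29). It read 2.44, 2.45, 2.12, 1.35 and 2.19 FPKM in NIKhKO, against 2.54, 4.06, 1.67, 2.18 and 3.03 FPKM in NIKflox. The ranges of Oas1a overlapped, NIKflox 2 being high and NIKhKO 4 low, and since it shares 57.6% of its 50-base windows with other genes its level is uncertain. Oas1b, Oas2 and Oasl2 had log2 fold changes of −0.01, 0.18 and 0.01.

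The IFIT proteins bind viral RNA and block its translation. Log2 fold changes of all 4 genes were positive, from 0.17 for Ifit3b to 0.43 for Ifit3, with a median of 0.35 and intervals that include 0 in each. Ifit1 read 2.64, 2.62, 2.02, 1.37 and 3.77 FPKM in NIKhKO, against 2.66, 2.73, 1.26, 0.768 and 2.32 FPKM in NIKflox. The genotypes overlapped widely, NIKflox 3 and 4 and NIKhKO 4 being the low libraries, and the log2 fold change was 0.39 (SE 0.37, 95% interval −0.46 to 1.25; edgeR adjusted p = 0.79). Ifit3 and Ifit3b share 51.2% and 45.0% of their windows with other genes, chiefly with each other, so reads could be split between them.

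Of the 3 transcription factors of the pathway, 1 had a positive log2 fold change, and their median was −0.20. Irf7, which drives the interferon-alpha genes, read 4.72, 6.33, 4.86, 5.63 and 4.86 FPKM in NIKhKO, against 4.69, 5.17, 5.21, 3.92 and 5.20 FPKM in NIKflox. The ranges overlapped, and the log2 fold change was 0.18 (SE 0.12, 95% interval −0.09 to 0.46; edgeR adjusted p = 0.67). Irf9, the DNA-binding subunit of the type I complex, read 4.47, 4.06, 2.76, 5.03 and 3.40 FPKM in NIKhKO, against 5.5, 5.85, 4.56, 4.05 and 4.99 FPKM in NIKflox. NIKhKO 3 and 5 lay below all NIKflox libraries, and the log2 fold change was −0.29 (SE 0.17, 95% interval −0.67 to 0.10; edgeR adjusted p = 0.63). Stat2, its partner, read 12.0, 11.5, 4.95, 5.56 and 6.34 FPKM in NIKhKO, against 7.81, 6.15, 8.32, 14.0 and 12.1 FPKM in NIKflox. Both genotypes held high and low libraries of Stat2, and its log2 fold change was −0.20 (SE 0.27, 95% interval −0.84 to 0.43; edgeR adjusted p = 0.87).

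The other 8 effectors had a median log2 fold change of 0.22, with 7 of 8 positive, and ran from −0.01 for Ifi27 to 0.35 for Rtp4. Bst2, which encodes tetherin, a membrane protein that holds budding virus on the cell, was the most abundant of all the genes. It read 156, 204, 119, 133 and 166 FPKM in NIKhKO, against 148, 133, 173, 181 and 173 FPKM in NIKflox. NIKhKO held both the highest and the lowest library, and the log2 fold change was 0.00 (SE 0.13, 95% interval −0.29 to 0.29; edgeR adjusted p = 1.0). Ifi27, whose product sits in mitochondria and the nuclear envelope, read 25.9, 38.5, 19.5, 26.6 and 31.0 FPKM in NIKhKO, against 34.8, 31.7, 28.9, 22.2 and 29.2 FPKM in NIKflox. Its ranges overlapped as well, at a log2 fold change of −0.01 (95% interval −0.41 to 0.39). Zbp1, a sensor of Z-form nucleic acid that can start necroptosis, had a log2 fold change of 0.33, Ifi44 one of 0.31, Trim30a one of 0.25, and Xaf1 and Parp14 one of 0.19 each, with intervals that include 0. In Rtp4 (0.35), NIKhKO 4 read 6.23 FPKM, far above the rest of its genotype. Leaving NIKhKO 4 out gave 0.05.

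Levels of these genes also differed between libraries of the same genotype. With each gene centred on its mean over the 10 libraries (log2 CPM), the median over the 35 genes was 0.03, 0.31, −0.01, −0.04 and 0.28 in NIKhKO 1 to 5, against 0.02, 0.22, −0.39, −0.46 and −0.12 in NIKflox 1 to 5. The same median over all genes stayed between 0.00 and 0.02 in each library. NIKhKO 2 and 5 were thus the high libraries and NIKflox 3 and 4 the low ones, and the other 3 NIKhKO libraries lay within the range of NIKflox. In NIKflox 3, 1 of 35 genes was above its own mean, and in NIKflox 4, 4 of 35 were. NIKflox 3 or 4 was the lowest of the 10 libraries for 28 of 35 genes, and NIKhKO 2 or 5 the highest for 18. NIKflox 2 was the highest NIKflox library for 21 genes, at a median of 0.22, close to the NIKhKO 2 and 5 libraries. The coefficient of variation within a genotype had a median of 23% in NIKhKO and 24.1% in NIKflox over these genes, beside 17.4% in NIKhKO and 18.2% in NIKflox over all genes tested, which are not matched to them in level.

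**Figure D4:**
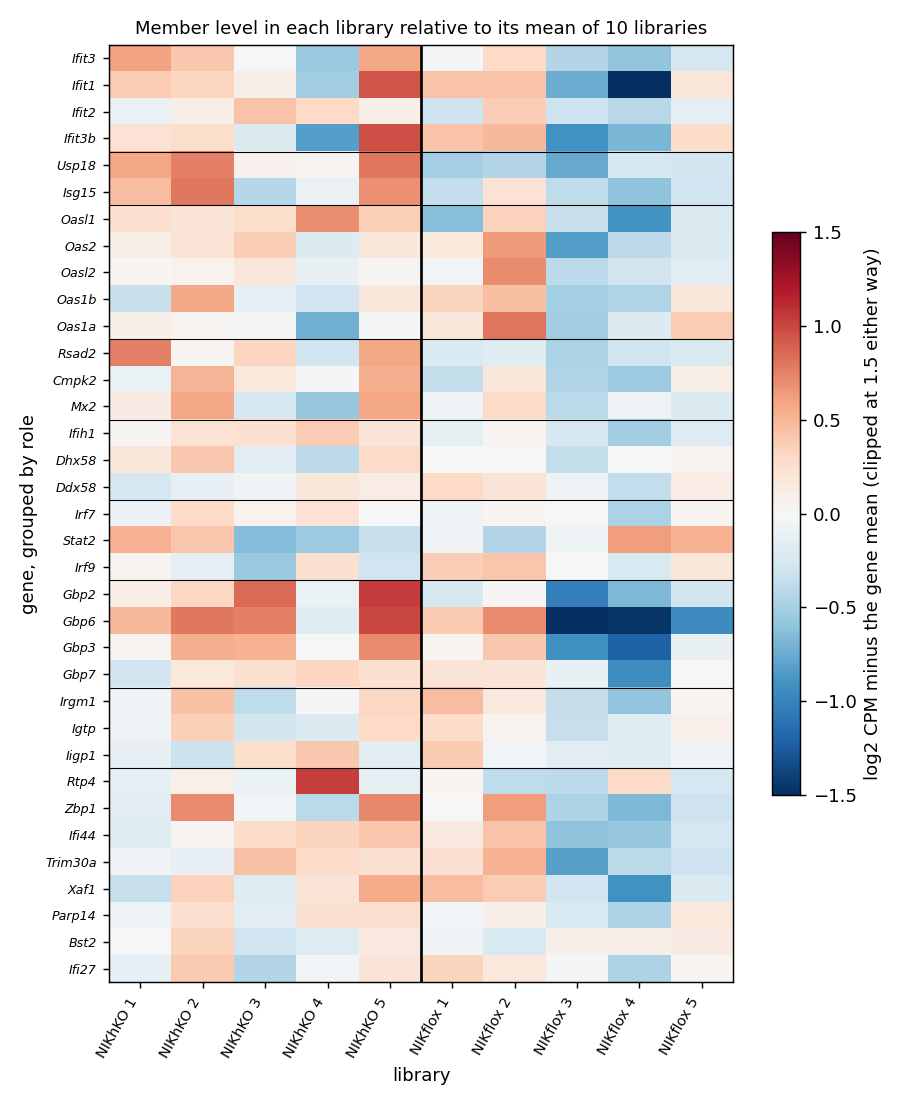
Level of each of the 35 genes in each library (columns, NIKhKO left of the line and NIKflox right of it) as log2 CPM minus the gene's mean over the 10 libraries, in colours clipped at 1.5 either way. NIKflox 3 and 4 are blue in nearly all rows, at medians of −0.39 and −0.46, and NIKhKO 2 and 5 mostly red, at 0.31 and 0.28.

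Markers of other cell types were set beside this pattern. B and plasma cell markers, 10 genes, summed to 17.2, 13.8, 15.5, 7.05 and 13.1 FPKM in NIKhKO, against 4.31, 7.69, 6.10, 6.86 and 7.85 FPKM in NIKflox. NIKhKO 4 lay among the NIKflox libraries and the other NIKhKO libraries above them. NIKhKO 4 was also the lowest NIKhKO library in the median of the interferon-stimulated genes, but only just (−0.04, beside −0.01 in NIKhKO 3). NIKflox 1 had the lowest B and plasma cell sum at a median of 0.02. NIKflox 3 and 4, with medians of −0.39 and −0.46, had higher sums than NIKflox 1 and lower sums than NIKflox 2 and 5. The medians of NIKflox 2 and 5 were 0.22 and −0.12. How sum and median relate was not tested. All 6 B and plasma cell markers that were tested had an unadjusted p below 0.05 in edgeR, all higher in NIKhKO, against 4.85% of all genes. Their median log2 fold change was 1.18, and 0 were called. T and NK cell markers (14 genes) summed to 5.25 to 7.58 FPKM in NIKhKO and 3.96 to 6.21 FPKM in NIKflox, with NIKflox 3 and 4 lowest at 3.96 and 4.54 FPKM. Log2 fold changes were positive in all 4 of these that were tested, at a median of 0.36. Much of the difference in that sum lay in the chemokine gene Ccl5, at 2.01 ± 0.235 FPKM in NIKhKO and 1.12 ± 0.342 FPKM in NIKflox (SD, n = 5 each). The T cell receptor subunit gene Cd3g, too low to test, had separate ranges the other way, at 0.16 ± 0.0125 FPKM in NIKhKO and 0.251 ± 0.0319 FPKM in NIKflox (SD, n = 5 each). Cd3g was named after its values were seen, and the ranges of Cd3d, Cd3e and Cd2, also too low to test, overlapped. Kupffer cell markers (12 genes) summed to 179 to 268 FPKM in NIKhKO and 160 to 273 FPKM in NIKflox, with NIKflox 3 the lowest and NIKflox 4 the highest library. Their log2 fold changes were positive in 10 of 12 (83.3%, against 48.2% of all genes), at a median of 0.11. Markers of plasmacytoid dendritic cells other than Bst2 (8 genes, 6 of them below 0.5 FPKM throughout) summed to 2.55 to 6.36 FPKM in NIKhKO and 1.63 to 9.14 FPKM in NIKflox. The highest sums were those of NIKflox 2 (9.14 FPKM) and NIKflox 4 (8.16 FPKM), the libraries with heart muscle transcripts. Cox6a2, a gene of this list, read 1.14 and 1.93 FPKM there and at most 0.32 FPKM elsewhere. Most of both sums lay in other genes of the list. The defining gene of these cells, Siglech, did not exceed 0.072 FPKM in any library. Markers of monocytes and recruited macrophages (12 genes) summed to 167 to 239 FPKM in NIKhKO and 179 to 238 FPKM in NIKflox. Of these 12, 7 stayed below 0.5 FPKM in every library, so the sum rests on the others and does not measure monocyte number. Neutrophil markers (8 genes, 4 of them below 0.5 FPKM throughout) summed to 1.9 to 5.02 FPKM in NIKhKO and 2.65 to 8.56 FPKM in NIKflox. Cholangiocyte markers (7 genes) summed to 16.1 to 27.6 FPKM in NIKhKO and 26.4 to 46.9 FPKM in NIKflox. Their log2 fold changes were negative in all 4 tested, at a median of −0.59. Separate ranges on the lower side were found in 2, against 1.59% of all genes. Sinusoidal endothelial markers (12 genes) summed to 47.2 to 81.3 FPKM in NIKhKO and 66.6 to 84.8 FPKM in NIKflox, with 9 of 12 negative and a median of −0.10. The part of these cell types in the differences was not tested. Without NIKflox 2 and 4, the libraries with heart muscle transcripts, the median log2 fold change of the interferon-stimulated genes was 0.30 and 0 were called.

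The pathway that leads to these genes was followed from ligand to target, with lists of further genes. Of 21 interferon genes, 19 had a count of 0 in all 10 libraries and none was abundant enough to test. Ifnk had a count of 10 in NIKhKO 3 alone, and Ifng had counts of 4 to 8 in NIKhKO 3 and 5 and in NIKflox 1, 2 and 5. Interferon transcripts were therefore at or near the limit of detection at this depth in both genotypes. Of 6 receptor genes 5 were tested, and their median log2 fold change was 0.12, with 0 at an unadjusted p below 0.05. Ifngr1 (0.38), Ifnar1 (0.17) and Il10rb (0.12) had the smallest p-values.

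JAK-STAT and IRF genes showed no common direction, with 7 of 14 positive and a median of 0.01. At an unadjusted p below 0.05, 0 were higher and 1 was lower, against 4.85% and 5.14% of all genes, which is no result about the list. The gene on the lower side was Socs3, the feedback inhibitor best known for blocking signalling by interleukin 6. Socs3 read 1.6, 1.6, 1.86, 1.07 and 1.18 FPKM in NIKhKO, against 1.68, 2.0, 2.71, 3.76 and 3.03 FPKM in NIKflox. NIKhKO 3 lay above NIKflox 1 and all other NIKhKO libraries below every NIKflox library, with a log2 fold change of −0.77 (SE 0.22; edgeR unadjusted p = 0.0054, adjusted p = 0.29). Irf5 (−0.41) and Pias1 (0.17) followed by p.

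Genes of nucleic acid sensing, upstream of interferon production, had positive log2 fold changes in 4 of 13, against 48.2% of all genes, and a median of −0.16. At an unadjusted p below 0.05, 0 were higher and 1 was lower, against 4.85% and 5.14% of all genes, and a single gene is no result about the list. Trim25, a ubiquitin ligase that activates RIG-I, averaged 12.3 ± 1.62 FPKM in NIKhKO and 15.6 ± 1.01 FPKM in NIKflox (SD, n = 5 each), with a log2 fold change of −0.28 (SE 0.09; edgeR unadjusted p = 0.010, adjusted p = 0.33). Ikbke (−0.21) and Ticam1 (−0.22) were next.

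A list of 72 further interferon-stimulated genes, 63 of them tested, leaned the same way as the 35. Positive log2 fold changes were found for 43 (68.3%), against 48.2% of all genes, with a median of 0.11. At an unadjusted p below 0.05, 6 were higher (9.52%, against 4.85% of all genes). On the lower side there were 3 of 63, near the 5.14% of all genes. Parp12, a mono-ADP-ribosyltransferase that blocks viral translation, had the smallest p. It averaged 7.98 ± 0.101 FPKM in NIKhKO and 6.58 ± 0.527 FPKM in NIKflox (SD, n = 5 each), with separate ranges and a log2 fold change of 0.34 (SE 0.09; edgeR unadjusted p = 0.0020, adjusted p = 0.24). Apol9a (0.99) and Gbp10 (1.77), which both have close paralogs, followed. Gbp10 averaged 2.21 ± 1.23 FPKM in NIKhKO and 0.663 ± 0.412 FPKM in NIKflox (SD, n = 5 each). Isg20, an exonuclease that degrades viral RNA, was separated in the opposite direction, at 1.05 ± 0.101 FPKM in NIKhKO and 1.62 ± 0.304 FPKM in NIKflox (SD, n = 5 each; log2 fold change −0.54, edgeR unadjusted p = 0.011), and was named after its values were seen.

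Antigen presentation by class I molecules, a further target of interferon, had 15 of 17 genes positive (88.2%, against 48.2% of all genes) and a median of 0.25. At an unadjusted p below 0.05, 3 were higher (17.6%, against 4.85% of all genes) and 0 lower (against 5.14%). Psmb10, a catalytic subunit of the immunoproteasome, averaged 16.6 ± 3.80 FPKM in NIKhKO and 12.5 ± 1.73 FPKM in NIKflox (SD, n = 5 each), with a log2 fold change of 0.46 (edgeR unadjusted p = 0.013, adjusted p = 0.35). H2-D1 (0.25) and H2-Q4 (0.35) followed, both of which belong to a family of near-identical genes.

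**Figure D5:**
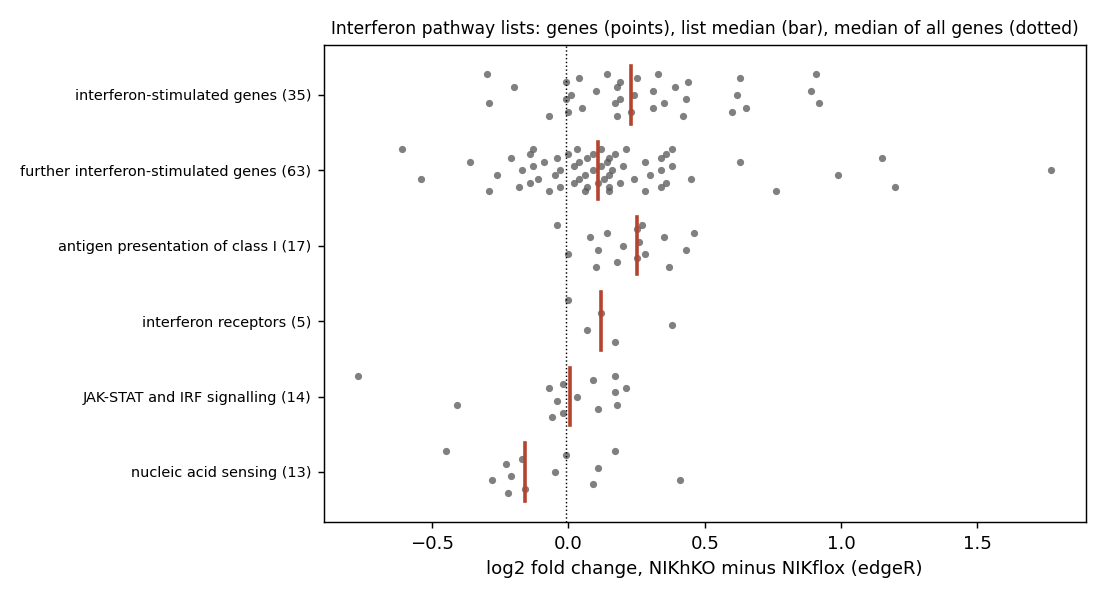
Log2 fold change (NIKhKO minus NIKflox, edgeR, horizontal axis) of each gene tested in 6 lists of the interferon pathway, with the number tested in brackets, a bar for the list's median and a dotted line for the median of all genes at −0.01. Medians run from 0.25 for class I antigen presentation and 0.23 for the interferon-stimulated genes to −0.16 for nucleic acid sensing.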

How the data were processed

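Polyadenylated liver RNA was sequenced in 10 libraries. The authors deposited 1 table with FPKM values and whole-number estimated counts per gene, per the file headers. Tools in the submitters' processing notes, with no roles, are edgeR, StringTie 1.3.4d, HISAT2 2.0.4 and cutadapt 1.9. The notes name hg38, although 55141 of 55401 identifiers are in mouse GENCODE M21 (GRCm38) and 31 of the 36 genes have the same start and end there, so coordinates are read as GRCm38. The use of strand in counting is not given in these sources. A count of 0 is listed at an FPKM of 1e-04, and more genes a library had a count of 4 (907 on average) than of 3 (330.5) or 5 (175.8), so a count may be less than a read pair and totals may overstate depth.

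Genes averaging 0.5 FPKM or more (and Map3k14) were tested on the counts with edgeR 4.0.16 in R 4.3.3, quasi-likelihood, TMM, two-sided, with Benjamini-Hochberg adjustment over 12731 genes. Standard errors are the log2 fold change over the root of F, and 95% intervals use 8 residual degrees of freedom. On simulated counts the test called 8% of 1.5-fold, 60% of 2-fold and 94% of 4-fold changes (50 genes each). It made 6 false calls among 12531 unchanged genes. The changed genes all had a mean count above 50 and were changed together, which eases the adjustment. In the data only 3 genes were called, so these shares may be too high for them, also at 2-fold. Changes as small as 1.5-fold would thus mostly go uncalled with these libraries. Alternatives were limma 3.58.1, DESeq2 1.42.0, other scalings, filters and weights, and leaving out libraries. Sequence shared between genes was counted as 50-base windows in GENCODE M21 transcripts. Promoters came from RefSeq.

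Members and gene lists were chosen with earlier results of these data known. Named genes are those with an unadjusted p below 0.05 or separate ranges, Isg15, Irf7, Irf9, Stat2 and Ifit1, the 3 most abundant, the 3 lowest fold changes and the widest spread, and in other lists the 3 with the smallest p. Others were named after their values were seen. Protein sequences were not used here. The values of 1 gene of the signalling list are not reported here.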

Additional observations from a re-analysis of the deposited data

Results flagged for a closer look

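In 7 of 72 sets of 5 libraries (36 genes in each genotype), the highest or lowest library stood apart from the other 4 by Dixon's criterion, which chance alone would give in about 1 in 20. NIKflox 2 was such a library for 3 genes, always on the high side, with 15.4 FPKM of Isg15, 1.55 FPKM of Ifit2 and 2.0 FPKM of Oasl2. NIKhKO 4 was one for 2 genes, also on the high side, with 4.55 FPKM of Oasl1 and 6.23 FPKM of Rtp4. NIKhKO 1 was low for Gbp7, at 1.40 FPKM, and NIKflox 1 high for Iigp1, at 32.4 FPKM. NIKflox 2 is also a library with heart muscle transcripts, and their part in these values was not tested.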

How the results depend on the processing

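The median log2 fold change of the 35 genes kept its sign in the 21 alternatives, from 0.10 (limma on log2(FPKM + 1)) to 0.37 (voom with sample quality weights), and from 0.17 to 0.31 with single libraries left out. The number of genes with a positive value ran from 25 (library size only, or limma on log2(FPKM + 1)) to 31 (no filter, or without NIKhKO 1). DESeq2 called 3 of the 35 and the other alternatives 0. Over all genes 3 were called, but 207 by DESeq2, 9 with library size only, 5 with voom weights, 1 without NIKflox 2 and 4, and 0 by limma at either pseudocount (1385 at +1 and 1359 at +0.1 with an unadjusted p below 0.05). With single libraries left out the count ran from 0 to 24, the highest being without NIKhKO 4. The cause was not tested. Library size alone moved the median of all genes to −0.08, beside 0.17 for the 35. Of 734 gene values, compared after rounding, 33 in 6 genes changed sign. Log2 fold changes of these genes as reported lay within 0.05 of 0, except that of Ifit3b (0.17). Bst2, at a rounded 0.00, could not be counted, and it ran from −0.08 to 0.07 with single libraries left out. Ifi27 was 0.01 with no filter, 0.03 with voom, and −0.11 to 0.09 with single libraries left out. Igtp was −0.02 with limma at either pseudocount and −0.03 to 0.13 with libraries left out. Iigp1 was −0.03 with library size only and without NIKflox 2 and 4, −0.04 with limma at either pseudocount, −0.01 with voom, and −0.07 to 0.15 with libraries left out. Oas1b was 0.13 with voom and −0.18 to 0.11 with libraries left out. Oasl2 was −0.05 with library size only, −0.01 with limma on log2(FPKM + 1), and −0.06 to 0.25 with libraries left out. Ifit3b was −0.11 without NIKhKO 5 and up to 0.34 without other libraries. With the replicate number as a block, 2 genes and 0 of the 35 were called, at a median of 0.25. Equal numbers did not pair the libraries (correlations −0.253 to 0.051 over 5 pairs, with 0 libraries closest to their own number). Most of these genes lie below 10 FPKM, and 5 libraries a genotype with uneven levels limit what can be told apart.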
